A study of Mus musculus with 21 samples.

Results

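The homeobox genes of the HoxA, HoxB, HoxC and HoxD clusters and their neighbours Evx1 and Evx2 were examined in differentiating mouse embryonic stem cells before and after induction of the transcription factor Sox7. The set held 40 genes, 38 of them Hox genes. Every deposited ATAC, ChIP and input peak was taken that lay between the outermost listed genes of a cluster or within 50 kb beyond them. These windows held 42 of the 51264 merged ATAC regions and 4 of the 4548 merged ChIP regions of the series.

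All cells were of the line A2lox-Sox7-Myc, derived from E14Tg2a, in which doxycycline switches on a Myc-tagged Sox7, and all were grown as embryoid bodies and collected at day 4. Induced samples had received doxycycline at 1 µg/ml for 24 h and uninduced samples none, and the labels do not state whether replicates came from separate cultures. ATAC-seq, which marks open chromatin by transposase insertion, was done on cells sorted as PDGFRalpha+FLK1+ (called CPC, cardiac progenitors) and as PDGFRalpha-FLK1+ (called EPC, endothelial progenitors). Each sort gave 2 libraries without and 2 with induction. Anti-Myc ChIP-seq used unsorted cells and gave 8 lists, 4 of each state, beside 1 input list. All cells carry the transgene, and no sample without it or from the parental line was analysed here. The 4 RNA-seq samples were not analysed here, so the values below describe peaks and not expression.

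Hox genes encode homeodomain transcription factors that set position along the body axis. Within a cluster, the genes with low paralogue numbers lie at one end, are activated first in the embryo and act in anterior regions, and those with high numbers lie at the other end, are activated later and act posteriorly. In embryonic stem cells the clusters are classic targets of Polycomb repression, and retinoic acid, Wnt signals and Cdx proteins open them as mesoderm and trunk form. Evx1 and Evx2, relatives of the fly gene even-skipped, sit beside the posterior ends of HoxA and HoxD, and Evx1 is active in the primitive streak.

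Promoters of 24 of the 40 genes were matched in a RefSeq table (GRCm38.p6), each running from 250 bases before to 50 bases after the start site. Hoxb4 and Evx1 are shown because their peaks were called in a single cell type: Hoxb4 (chr11:96318017-96318316, plus strand), with peaks in EPC libraries, Evx1 (chr6:52313248-52313547, plus strand), with peaks in induced CPC libraries. Hoxd10 (chr2:74691641-74691940, plus strand) stands for a late gene with peaks in both cell types. Hoxa2 (chr6:52164782-52165081, minus strand) was added after its ChIP peak had been seen. Capitals mark AACAAT (a SOX motif) in Evx1, CACGTG (an E-box) in Hoxd10 and, in Hoxa2, the reverse complement of a match to TGATTNAT (the motif of HOX with PBX). Hoxb4 held none of the 6 motifs searched.
Hoxb4: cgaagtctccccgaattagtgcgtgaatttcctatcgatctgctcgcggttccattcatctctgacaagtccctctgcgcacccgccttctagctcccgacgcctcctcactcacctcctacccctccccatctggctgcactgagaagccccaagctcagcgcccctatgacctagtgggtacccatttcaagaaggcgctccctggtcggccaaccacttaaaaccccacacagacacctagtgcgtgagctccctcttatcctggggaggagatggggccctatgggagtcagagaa
Evx1: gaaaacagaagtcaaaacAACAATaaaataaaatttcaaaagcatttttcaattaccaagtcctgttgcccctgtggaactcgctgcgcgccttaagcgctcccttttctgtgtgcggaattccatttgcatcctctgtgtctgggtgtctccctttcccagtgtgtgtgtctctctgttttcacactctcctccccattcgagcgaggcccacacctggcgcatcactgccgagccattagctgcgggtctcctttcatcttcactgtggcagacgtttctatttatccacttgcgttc
Hoxd10: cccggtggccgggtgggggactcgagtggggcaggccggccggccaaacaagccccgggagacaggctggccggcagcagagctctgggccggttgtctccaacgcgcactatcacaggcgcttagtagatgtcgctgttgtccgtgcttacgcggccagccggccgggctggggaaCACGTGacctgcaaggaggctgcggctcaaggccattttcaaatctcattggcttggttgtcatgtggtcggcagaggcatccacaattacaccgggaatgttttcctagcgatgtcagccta
Hoxa2: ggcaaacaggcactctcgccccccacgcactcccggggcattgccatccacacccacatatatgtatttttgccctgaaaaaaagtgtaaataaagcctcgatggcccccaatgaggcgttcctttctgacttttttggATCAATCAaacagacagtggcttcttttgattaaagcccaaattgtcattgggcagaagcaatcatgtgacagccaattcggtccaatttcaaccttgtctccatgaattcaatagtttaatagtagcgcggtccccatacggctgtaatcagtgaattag
The motifs were searched on both strands, and the 3 matches shown do not overlap another match. The first SOX motif was found in 3.85% of the 26 promoter entries of member genes and in 10.7% of all 32851 promoters, and the other SOX motif searched, ACAAAG, in 23.1% and 18.7%. The HOX with PBX motif was in 7.69% of member entries and 3.22% of all promoters. For the CDX motif, TTTATG, the shares were 19.2% and 11.9%. The motif of GATA factors, AGATAA, was in 3.85% of member entries and in 11.2% of all promoters. The E-box was in 19.2% and 7.15%. A match is only a description of the letters. The SOX match in Evx1 began at -232 from the start site, outside the ATAC peak region there, which begins at 52313338. The E-box of Hoxd10 began at -73 and lay inside the ATAC region of chr2:74691310-74692327. The match in Hoxa2 began at -111, inside the ChIP peak described below.

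Peaks of the 8 ATAC libraries merged into 14 regions in the HoxA window (chr6:52112417-52368389), 13 in HoxB (chr11:96144316-96418254), 9 in HoxC (chr15:102871131-103086856) and 6 in HoxD (chr2:74602989-74815142). They covered 4.65%, 4.30%, 3.52% and 2.56% of those windows. Of the 42 regions, 32 lay between the outermost member genes and 10 in the flanks, 6 of the latter in HoxB. A share of 50.0% (21 regions) overlapped the body of a member gene, beside 59.7% of all ATAC regions on a protein-coding gene body. In 7 of 8 libraries the windows held more regions per 100 kb (1.46 to 1.88) than that library's genome (0.888 to 1.17). CPC uninduced 2 was the exception, with 0.731 in the windows and 0.863 over the genome. The genome value was taken over the whole span of the chromosomes between their outermost regions. It was not matched to the windows for gene density, so these values do not show that the clusters were more open than other gene-rich stretches.

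**Figure D1:**
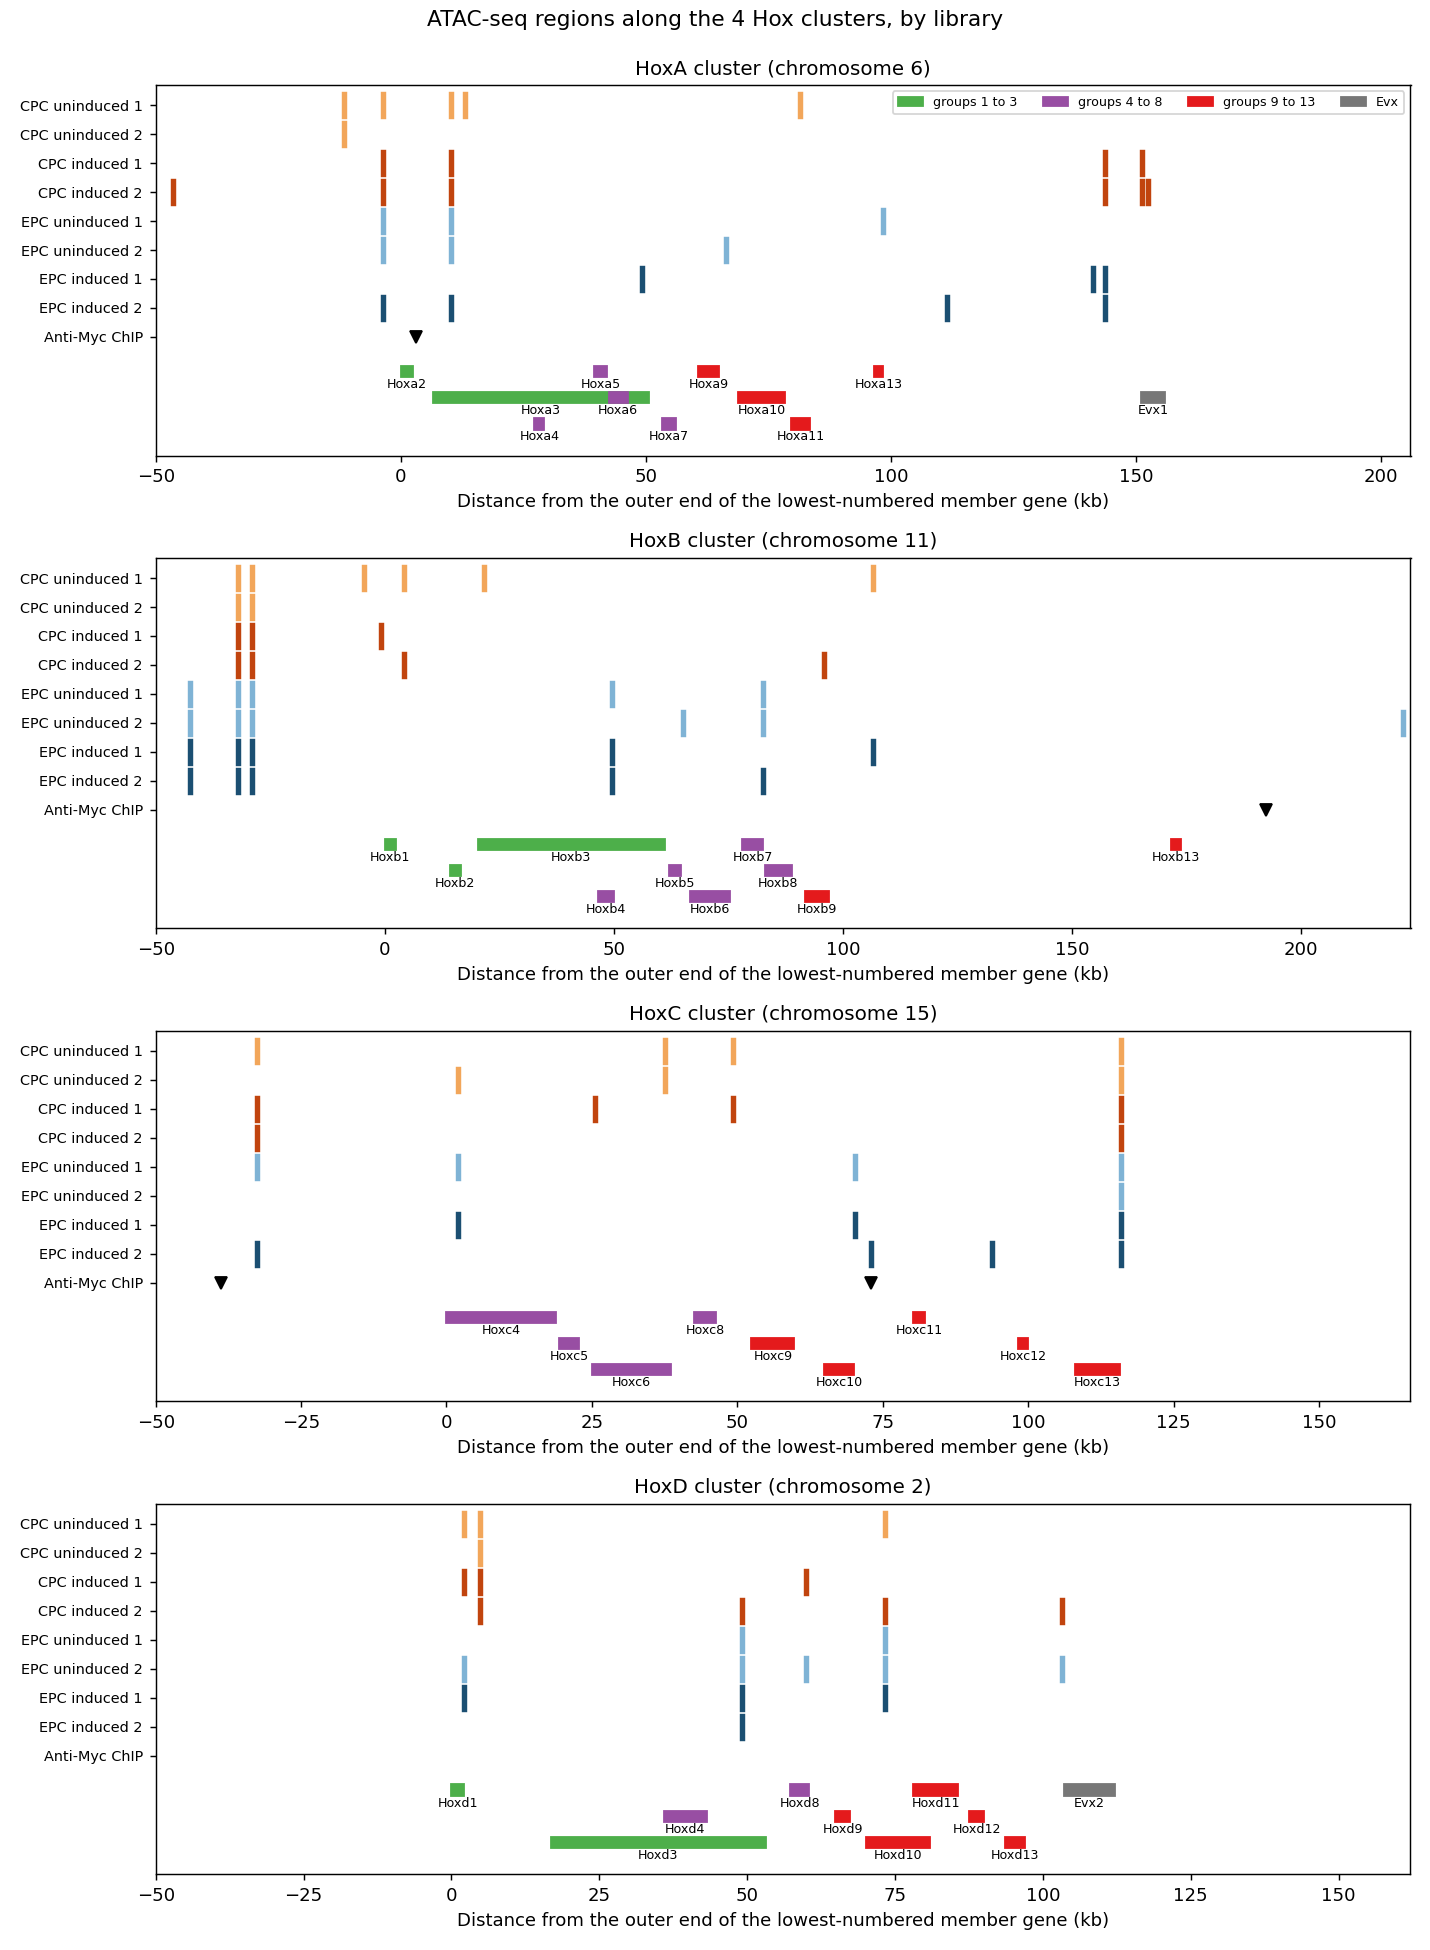
ATAC regions along the 4 clusters. Each row is a library, each tick the centre of a region with a peak there (tick width is not to scale), triangles are anti-Myc ChIP peaks, and boxes are member genes coloured by paralogue group, with distance in kb from the outer end of the lowest-numbered member on the x axis. The ticks shared by all rows lie outside HoxB on the Hoxb1 side (2 regions) and at the end of HoxC at Hoxc13.

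One library stood apart. CPC uninduced 2 had 7 Hox regions, where the other 7 libraries had 14 to 18, and its list was also the shortest (23068 of up to 30732 peaks). EPC uninduced 2, with a list nearly as short (23694 peaks), had 15. CPC uninduced 1 had 18 regions, the highest number, so the widest gap lay between replicates of a single group. CPC induced 1 and 2 had 14 and 16, EPC uninduced 1 and 2 had 14 and 15, and EPC induced 1 and 2 had 14 each. The lists hold no read counts, so depth is unknown, and a peak missing from a list may be a shallow library as well as closed chromatin. In sorted cells taken as a bulk sample, fewer open cells and less opening per cell cannot be told apart.

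**Figure D2:**
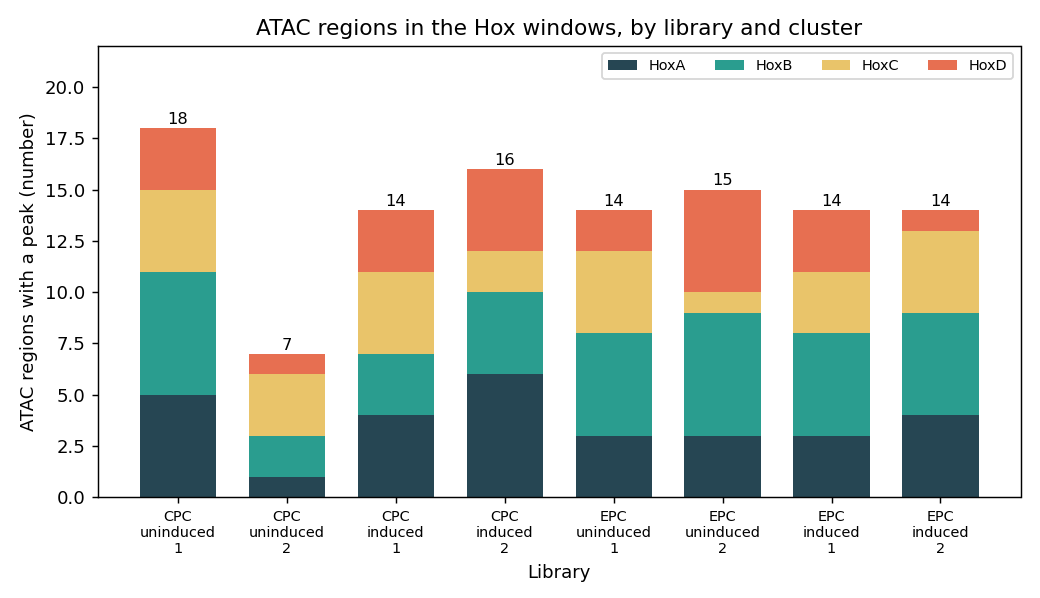
Number of merged ATAC regions with a peak in the Hox windows, for each of the 8 libraries, stacked by cluster. CPC uninduced 2 reaches 7 and the other bars 14 to 18.

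Hox regions were called in few libraries. Of the 42, 18 had a peak in a single library (42.9%, beside 26.7% of all ATAC regions) and 27 in 2 libraries or fewer (64.3%, beside 41.1%). Another 12 had a peak in 4 or more libraries, where 49.8% of all regions did, and 3 in all 8 (7.14%, beside 25.5%). The median was 2 libraries for Hox regions and 3 for all regions, and the median width was 867.5 bp and 945 bp. HoxA had 9 single-library regions of 14 and HoxD had 0 of 6, with 4 of its 6 regions in 4 or more libraries. The peaks were also weak. Each peak's score is the authors' own value (in MACS 1.4, the p-value as -log10, multiplied by 10) and was used to describe, rank and filter peaks. Depth is unknown, so scores of different lists are set side by side and were not tested. It was 100 or more in 39 of 112 Hox values (34.8%), beside 63.4% of all ATAC peaks, with a median of 83.3 and a range of 50 to 571. The median Hox peak of a library scored as high as or higher than 20.1% to 52.3% of the peaks of its own list.

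**Figure D3:**
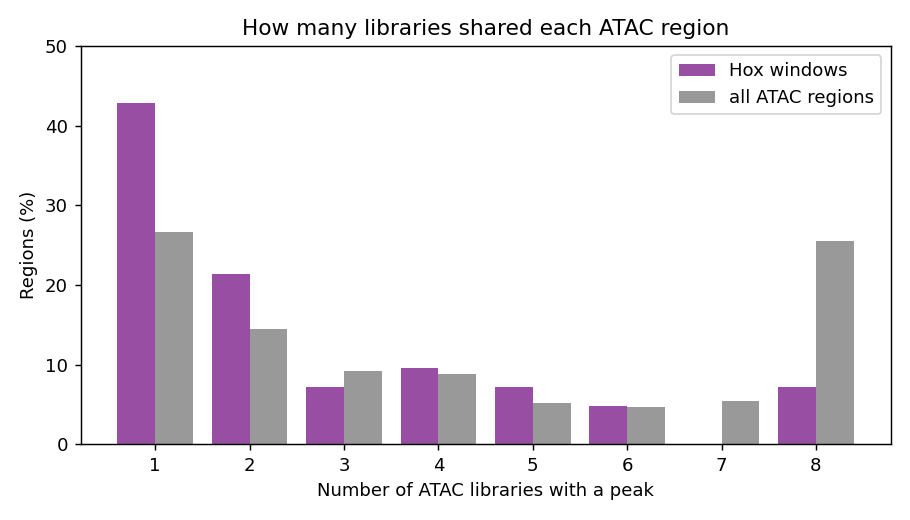
Share of regions (%, y axis) by the number of ATAC libraries with a peak (x axis), for the 42 Hox regions and for all 51264 ATAC regions. The Hox bar is highest at 1 library (42.9%), and at 8 libraries the bar for all regions (25.5%) stands above the Hox bar (7.14%).

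A gene was called open in a library when a peak lay within 1 kb of its start site, or, for the 16 members without a start site in the promoter table, within 1 kb of the gene body. Of the 40 members, 14 were open in at least 1 library (35%), beside 64.5% of 21887 protein-coding genes, and 26 in none, beside 35.5%. Between 3 and 8 members were open in a library (7.5% to 20%), where 51.8% to 58.1% of all protein-coding genes were. For the 24 members with a start site the range was 1 to 4 (4.17% to 16.7%), beside 50.9% to 57.1% of genes with a start site. These comparisons are descriptions, since genes of a cluster are not replicates.

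HoxA was the cluster with the fewest open members, 2 of 11. Hoxa13, which acts in the limb and genital buds, had a peak at its start in EPC uninduced 1 alone (score 76.29), and Evx1 is described with induction below. Hoxa2, which patterns the hindbrain and pharyngeal arches, and Hoxa4, Hoxa5, Hoxa6, Hoxa7, Hoxa9 and Hoxa10 had no peak within 1 kb of start or body in any library. Hoxa3 and Hoxa11 had none at the start site but had peaks inside the gene. The region inside Hoxa3 at chr6:52172204-52173214, where the RefSeq table also has the gene Gm15050, was open in 6 libraries, with scores of 125.4 in CPC uninduced 1, 98.81 and 121.54 in CPC induced 1 and 2, 97.74 and 73.01 in EPC uninduced 1 and 2, and 78.7 in EPC induced 2. It was missing in CPC uninduced 2 and EPC induced 1, so presence followed neither cell type nor induction.

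HoxB had 5 open members of 10. Hoxb4, which is known for its effect on blood stem cells, had a peak at its start in EPC uninduced 1 (72.02), EPC induced 1 (96.39) and EPC induced 2 (120.9), and in 0 of 4 CPC libraries. That peak, which overlaps the promoter printed above, also lies inside the long gene body of Hoxb3, so Hoxb3 shares it; a separate peak in Hoxb3 appeared in CPC uninduced 1 (66.67). The microRNA gene Mir10a lies 0.925 kb from this region. Hoxb7 had peaks in EPC uninduced 1 (94.16), EPC uninduced 2 (59.31) and EPC induced 2 (93.49), and in 0 CPC libraries. These Hoxb7 peaks lie in a region that also overlaps the Hoxb8 gene body. Hoxb7 counts through a gene-body window and Hoxb8 has a start-site window, so the region counts for Hoxb7 alone. Hoxb5 was open in EPC uninduced 2 (64.16) and Hoxb9 in CPC induced 2 (66.05) only. Hoxb2, Hoxb6 and Hoxb13 had no peak at gene or start, and Hoxb1 and Hoxb8 had none within 1 kb of the start. Hoxb1 did have peaks close by, outside that window. The region chr11:96363659-96364613, before the gene, was open in CPC uninduced 1 (80.55) and CPC induced 2 (84.37). The region chr11:96368596-96369440, 0.342 kb past the gene end, was open in CPC induced 1 (74.92). Both were open in 0 EPC libraries.

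In each of the 4 CPC libraries the Hox peak of highest score lay outside HoxB, on the side of Hoxb1, the lowest-numbered gene of the cluster, which acts in the hindbrain and in heart progenitors. In CPC uninduced 1 and 2 and CPC induced 1 that peak lay in the region chr11:96396647-96397953, 28.4 kb from Hoxb1. In CPC induced 2 it lay in the neighbouring region described below, at 361.26. The region chr11:96396647-96397953 was open in all 8 libraries. Its scores in CPC uninduced 1 and 2 and CPC induced 1 and 2 were 498.42, 343.71, 571.03 and 329.67, as high as or higher than 75.8% to 84.7% of the peaks of each list. In EPC uninduced 1 and 2 and EPC induced 1 and 2 they were 70.56, 82.23, 101.35 and 90.89, at 19.9% to 36.3% of each list. The 4 CPC values thus ranked in the upper part of their lists and the 4 EPC values in the lower part, with no overlap. The lists differ in length and their depth is unknown, so these ranks are a description. Whether the signal itself differed between cell types cannot be told from them and was not tested. The neighbouring region chr11:96399614-96400745, 31.4 kb from Hoxb1, was also in all 8 and overlapped between cell types, at 134.32 to 361.26 in CPC and 116.17 to 210.83 in EPC.

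HoxC had 4 open members of 9. Hoxc13, which acts in hair and nail, was the one member of the 40 open in all 8 libraries (2.5%, beside 45.7% of protein-coding genes). Its peak spans the outer gene boundary, at chr15:102920321-102921427, and scored 338.96, 145.15, 222.35 and 206.61 in CPC uninduced 1, 2 and induced 1, 2, and 395.08, 217.48, 379.76 and 185.35 in the EPC libraries in that order. Those values overlapped between cell types and between induction states. Hoxc6 was open in CPC uninduced 1 (51.86), CPC uninduced 2 (143.15) and CPC induced 1 (57.68), the last through another peak in the gene, and in 0 EPC libraries. Hoxc4 was open in CPC uninduced 2 (99.92), EPC uninduced 1 (97.39) and EPC induced 1 (51.7), and Hoxc10 in EPC uninduced 1 (122.36) and EPC induced 1 (50.95). Hoxc5, Hoxc8, Hoxc9, Hoxc11 and Hoxc12 had none.

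HoxD had 3 open members of 10, each in several libraries. Hoxd10, which acts in the limb and the lumbar spinal cord, was open in CPC uninduced 1 (85.88), CPC induced 2 (68.36), EPC uninduced 1 (120.51), EPC uninduced 2 (88.53) and EPC induced 1 (69.27). Hoxd1 was open in CPC uninduced 1 (58.62), CPC induced 1 (78.85), EPC uninduced 2 (59.43) and EPC induced 1 (63.84), and Hoxd8 in CPC induced 1 (54.6) and EPC uninduced 2 (50.04). Hoxd3, Hoxd4, Hoxd9, Hoxd11, Hoxd12, Hoxd13 and Evx2 had no peak at the start site. A region inside Hoxd3, which also lies on Hoxd3os1, at chr2:74715552-74716465, was present in all 4 EPC libraries (130.54, 65.93, 62.42 and 65.54) and in 1 CPC library (69.13, CPC induced 2). Evx2 had a region 0.044 kb from its gene body in CPC induced 2 (66.38) and EPC uninduced 2 (85.22).

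**Figure D4:**
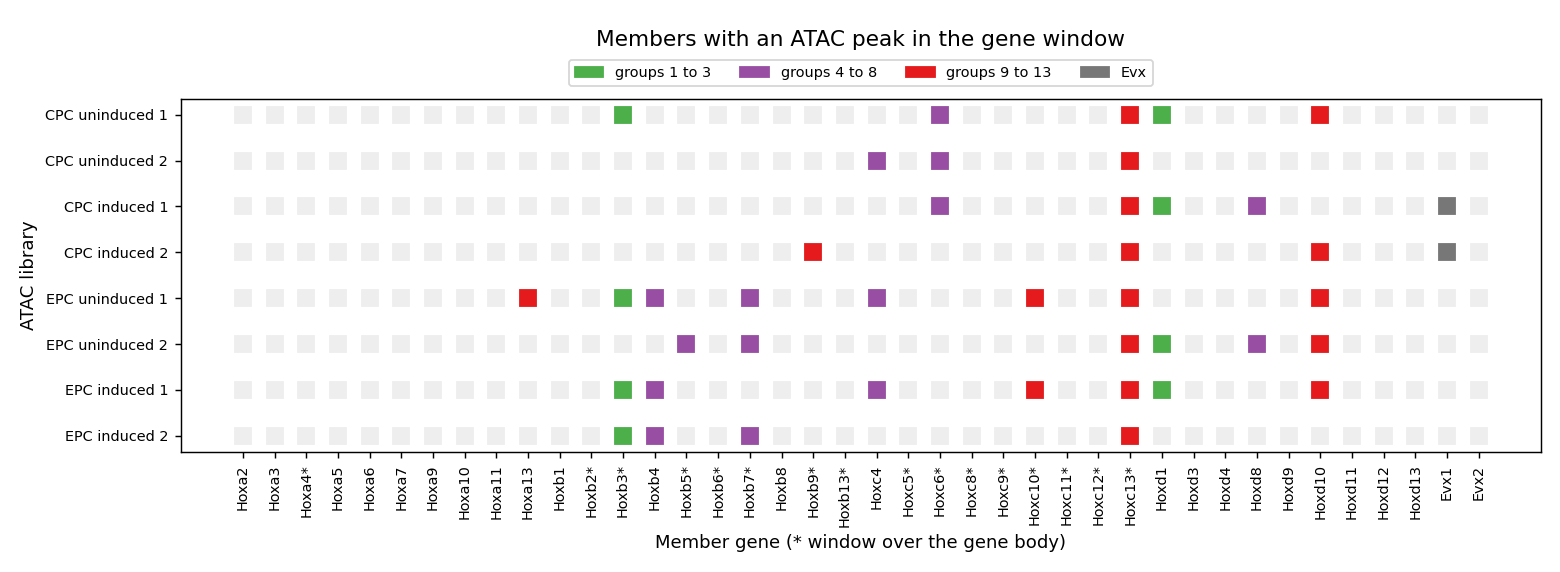
Member genes (x axis, in cluster order) with an ATAC peak in the gene window, by library (rows). Coloured squares are open and pale squares have no peak, and an asterisk marks a window over the gene body; the Hoxc13 column is filled in all 8 rows, and 26 columns are empty.

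Early and late genes both had few open members. Of the members in groups 1 to 3, 2 of 7 were open in at least 1 library, of groups 4 to 8 it was 6 of 15, and of groups 9 to 13 it was 5 of 16. Per library, 0 to 2 of the 7 early members were open (0% to 28.6%), 0 to 3 of the 15 central ones (0% to 20%) and 1 to 4 of the 16 late ones (6.25% to 25%). These ranges overlap, and the difference between classes was not tested. The classes mix start-site and gene-body windows. Hoxb3 counts as open through its gene body, in 3 of 4 libraries by the peak at the Hoxb4 start, and with a window at the 5-prime gene boundary for members without a start site 1 of 7 early members was open anywhere. The early members open anywhere were Hoxb3 and Hoxd1, and the late members open in 5 or more libraries were Hoxc13 and Hoxd10.

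The comparison of EPC with CPC asked whether the clusters differ between the sorted progenitors. The number of Hox regions per library was 14.25 ± 0.5 in EPC and 13.75 ± 4.79 in CPC (SD, n = 4 each), a difference of 0.5 (exact two-sided permutation p = 0.971, adjusted p = 1 over 8 measures). Without CPC uninduced 2 the difference became -1.75, in favour of CPC (exact permutation p = 0.286), without CPC uninduced 1 it was 1.92, without CPC induced 2 it was 1.25 and without EPC uninduced 2 it was 0.25. HoxB had 5.25 ± 0.5 regions in EPC and 3.75 ± 1.71 in CPC (exact permutation p = 0.229, adjusted p = 0.914). That difference of 1.5 turned to -0.75 with peaks of score 100 or more, and was 0.917 without CPC uninduced 2 and 0.75 without flanks. The central members, groups 4 to 8, had 2.5 ± 0.577 open windows in EPC and 1.25 ± 0.957 in CPC (exact permutation p = 0.171, adjusted p = 0.914). With peaks of score 100 or more both had 0.25, with gene-body windows for all members the difference of 1.25 was 2, and without CPC induced 2 it was 0.833. Early members had 1.25 and 0.75 open windows (p = 0.629 by the exact test) and late members 2.5 and 1.75 (p = 0.571 by the exact test), in EPC and CPC. The early difference of 0.5 was 0 with 5-prime boundary windows, 1.25 with gene bodies, -0.25 with windows of 2.5 kb, 0.25 with peaks of score 100 or more and 1.5 for groups 1 to 4. It was 0.917 without CPC uninduced 1 and 0.25 without CPC uninduced 2, CPC induced 2 or EPC induced 1. The late difference of 0.75 was 0.25 with lists of equal length or without EPC uninduced 1, 1.17 without CPC induced 2 and 1.25 without EPC induced 2. None of the 8 measures passed the exact permutation test, and the smallest p that 4 against 4 allows is 0.0286.

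By gene, 2 of 40 members were open in at least 3 more EPC than CPC libraries (5%, beside 0.859% of protein-coding genes), Hoxb4 and Hoxb7. In the other direction it was 1 of 40, Hoxc6 (2.5%, beside 0.658%). By region, 1 of 42 was open in all 4 EPC and 0 CPC libraries (2.38%, beside 2.1%), at chr11:96410242-96411222, 42 kb outside Hoxb1, with scores of 69.76, 70.88, 73.02 and 54.27. One was open in all 4 CPC and 0 EPC libraries (2.38%, beside 1.8%), at chr2:74759824-74760834, 2.15 kb from Hoxd1 and within the long noncoding RNA gene Haglr. Its scores were 158.07 and 65.4 in CPC uninduced 1 and 2 and 228.86 and 62.41 in CPC induced 1 and 2. These shares by region are near the background. Without CPC induced 2, EPC uninduced 2 or EPC induced 1, in turn, the EPC count was 2.

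Marker genes of the sorted cells were set beside these counts. Of 8 endothelial and blood genes, 3 to 4 had an open window in each CPC library and 6 in each EPC library, with Icam2, an endothelial adhesion gene, in 0 of 4 CPC and 4 of 4 EPC libraries and Gata1 and Erg in none. The 8 cardiac genes were open at 6 to 7 in CPC and 7 in EPC, with Nkx2-5 in none, and 4 to 5 and 3 to 5 of 6 neural genes were open. Kdr, the gene of FLK1, was open in all 8 libraries, and Pdgfra, which the sort uses to part CPC from EPC, in 1 induced library of each. The part of cell mixture in the Hoxb4, Hoxb7 and Hoxc6 differences was not tested.

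The Hox regions gained on Sox7 induction all lay in HoxA, near Evx1. A region counts as gained in a cell type where both of its induced libraries, and none of its uninduced ones, have a peak. In CPC, 2 of 42 Hox regions were gained (4.76%, beside 5.75% of all regions), both at or near Evx1. The first, chr6:52313338-52314087, covers the start of Evx1 and overlaps the printed promoter, with scores of 73.05 and 97.25 in CPC induced 1 and 2 and no peak in the other 6 libraries. The second, chr6:52305655-52306622, lies 6.88 kb from Evx1, between the outermost member genes of HoxA. Its scores were 101.31 and 62.74 in CPC induced 1 and 2 and 70.55 and 87.52 in EPC induced 1 and 2. It had no peak in any of the 4 uninduced libraries and was the 1 gained region in EPC (2.38%, beside 6.12%). The authors' deposited table of regions found only with doxycycline in CPC (3093 regions) holds both, at 52305905 to 52306589 and 52313338 to 52313919. The authors' deposited table for EPC (3267 regions) holds 1, at 52305800 to 52306399. Both tables are the authors' own lists derived from this series, so they are not independent of these calls. The share of gained regions was near or under the background, and the Evx1 peaks were weak, each at or under 101.31.

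Lost regions have the reverse pattern. CPC had 2 of 42 (4.76%, beside 2.35%), at chr6:52150269-52151364, 11.1 kb from Hoxa2 (112.83 and 53.61 in CPC uninduced 1 and 2), and at chr15:102998952-102999764 in Hoxc6 (51.86 and 143.15). EPC had 0, beside 1.82%. With a library left out, a call rests on a single library of that state, and these counts moved by over 1.5 times. Gained CPC regions numbered 5, 7 and 5 without CPC uninduced 1, CPC induced 1 or CPC induced 2, and lost CPC regions 7 without CPC uninduced 2. Gained EPC regions numbered 2, 4 and 4 without EPC uninduced 1, EPC induced 1 or EPC induced 2. Lost EPC regions numbered 5, 1, 1 and 3 without EPC uninduced 1, EPC uninduced 2, EPC induced 1 or EPC induced 2.

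Numbers of open Hox regions per library gave no difference between states that passed the test. Over both cell types there were 14.5 ± 1 induced and 13.5 ± 4.65 uninduced (SD, n = 4 each, exact permutation within cell type, p = 1). The difference of 1 became -1.75 without CPC uninduced 2, 3.75 without CPC uninduced 1 and 0.5 without CPC induced 2. It was -0.25 with peaks of score 100 or more and -1.5 with lists of equal length. CPC had 15 ± 1.41 induced and 12.5 ± 7.78 uninduced (n = 2 each, exact permutation p = 1), and the difference of 2.5 became -3 without CPC uninduced 2, 8 without CPC uninduced 1, 1.5 without CPC induced 2 and 0 with peaks of score 100 or more. EPC had 14 ± 0 and 14.5 ± 0.707 (n = 2 each, exact permutation p = 1). With lists of equal length EPC had 8 induced and 13.5 uninduced, a difference of -5.5 in place of -0.5 (exact permutation p = 0.333, the smallest possible). The difference was 0.5 without flanks, -1 without EPC uninduced 1 and 0 without EPC uninduced 2. HoxA had 4.25 ± 1.26 induced and 3 ± 1.63 uninduced (exact permutation p = 0.5, adjusted p = 1). That difference of 1.25 was 2.25, 0.25 and 0.75 without CPC uninduced 1, CPC uninduced 2 or CPC induced 2, and 0.25 with peaks of score 100 or more. Central members had 1.5 ± 1 and 2.25 ± 0.957 open windows (exact permutation p = 0.389, adjusted p = 1). That difference of -0.75 was -1.25 without CPC induced 1, -0.25 without CPC induced 2 and 0 with peaks of score 100 or more. The smallest p is 0.0556 within cell type and 0.333 for 2 against 2, so neither design can pass 0.05. No member was open in at least 3 more induced than uninduced libraries (0 of 40, beside 0.745%) or the reverse (0 of 40, beside 0.174%).

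Anti-Myc ChIP peaks were few in the windows. There were 4, each in 1 induced list, with 1 in induced list 1, 3 in induced list 3 and 0 in induced lists 2 and 4. All 4 uninduced lists and the input list held 0. Uninduced lists 2 and 4 shared 585 of 772 peak starts (75.8%, where no other pair of lists passed 1.04%) and were counted as 1 library, which gave 1 ± 1.41 (SD, n = 4) induced and 0 (n = 3) uninduced peaks (exact permutation p = 0.571; the smallest possible is 0.0571). The uninduced lists were shorter, at 772 to 1059 peaks beside 1061 to 2807. With lists of equal length, or with peaks of score 100 or more, both states had 0, without induced list 3 the difference was 0.333 and without flanks it was 0.5. The peak chr6:52164894-52166036 begins 0.063 kb from Hoxa2, overlapping the printed promoter, and scored 40.1, rank 2800 of the 2807 peaks of induced list 3. The peak chr15:102963359-102964320, 2.48 kb from Hoxc10, scored 61.76 and overlapped an ATAC region seen in EPC induced 2 alone. The other 2 lay 38.3 kb from Hoxc4 (80.13, chr15:103075150-103076006) and 18.1 kb from Hoxb13 (40.22, rank 1490 of 1511 in induced list 1, chr11:96175654-96176264). All 4 of 4 were in 1 induced list only, as were 51.4% of ChIP regions. None was an induced site, meaning a region in at least 3 induced and 0 uninduced lists (0 of 4, beside 5.17% of ChIP regions), and the authors' deposited table of 666 Sox7 regions holds 0 in these windows. The regions gained at Evx1 had no ChIP peak.

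Genes that act with or on the Hox clusters were set beside the 51.8% to 58.1% of protein-coding genes open per library. The Hox cofactor, Polycomb and Trithorax lists lay above that share in 8 of 8 libraries, the ParaHox genes in 6, and the retinoic acid and the Cdx and trunk lists in 0. All 6 lists lay above the 40 members, whose share was low, in 8 of 8 libraries. Of 9 Hox cofactors, the Pbx, Meis and Pknox proteins that bind DNA beside Hox proteins, 8 to 9 were open per library, with Pbx2 as the member in 2 libraries. Of 16 Polycomb genes, which keep Hox genes silent, 11 to 15 were open, and of 10 Trithorax genes, which keep them active, 7 to 10. The retinoic acid list had 6 to 9 of 16 open, among them the receptors Rara, Rarb and Rarg in all 8 libraries, while Aldh1a2, which makes retinoic acid in the embryo, had 0 and the degrading enzyme Cyp26a1 had 2, both induced. Cdx and trunk regulators had 2 to 4 of 9, with Cdx2 and Gdf11 in all 8, Tbx6 in 7, Cdx1 in 2 uninduced libraries, and Cdx4, Wnt3a, Nkx1-2 and Msgn1 in 0. The ParaHox genes Gsx1, Gsx2 and Pdx1, relatives of the Hox genes outside the clusters, had 1 to 2 of 3 open, with Pdx1 in all 8. These shares are descriptions with no test.

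**Figure D5:**
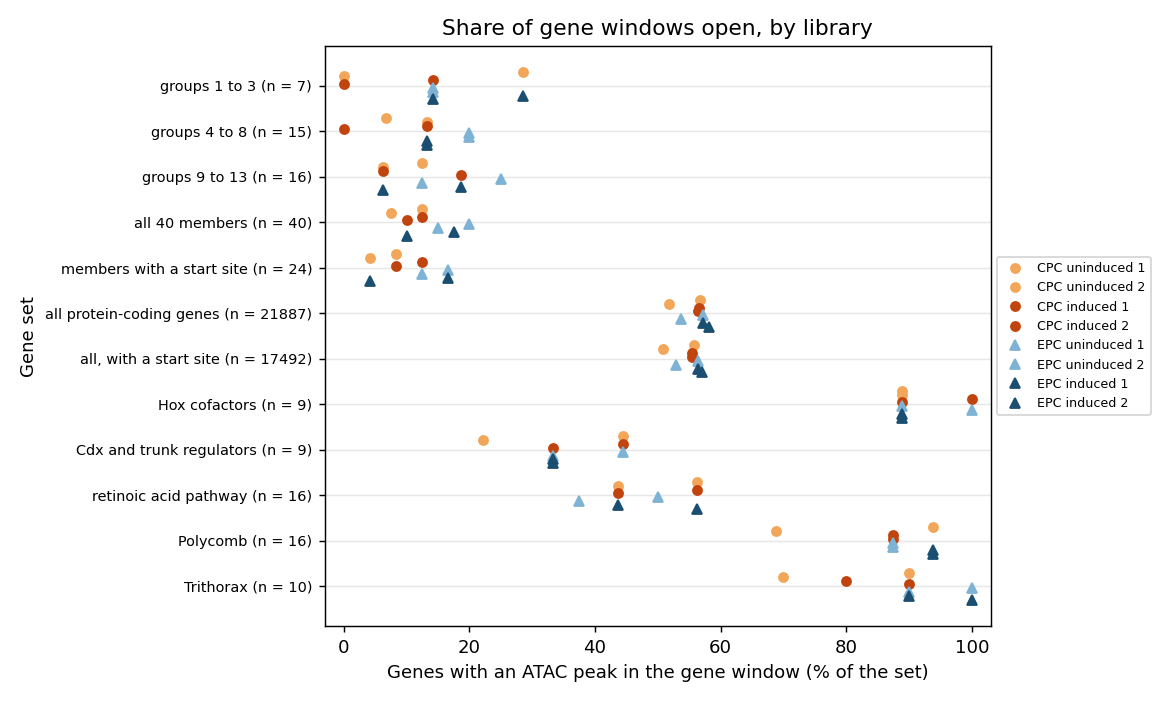
Share of each gene set with an ATAC peak in the gene window (%, x axis), 1 point per library; circles are CPC and triangles EPC, pale uninduced and dark induced. All 40 members lie at 7.5% to 20%, all protein-coding genes at 51.8% to 58.1%, and the Hox cofactors at 88.9% to 100%.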

How the data were processed

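The data used were 17 peak lists, 8 ATAC, 8 ChIP and 1 input, and the authors' own derived lists. Each row of a deposited list gives a position on GRCm38 (mm10) and a score from the authors' peak caller. Per the submitters' processing notes the tools include Bowtie2, SAMtools, bedtools, MACS 1.4 and Trimmomatic, with no role given. The growth protocol describes sorting PDGFRalpha+FLK1- cells, unlike the sample characteristics, which were followed here.

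Peaks of an assay were merged where they overlapped by 1 bp or more, and a region was open in a library with a peak there. Depth is unknown, so no counting error was computed. Gene positions and promoters came from RefSeq (GRCm38.p6). Windows reached 50 kb beyond the outermost member genes and 1 kb around start sites, with gene bodies for the 16 members without one. Numbers per library were compared by exact two-sided permutation tests, doubling the smaller tail, with Benjamini-Hochberg adjustment over 8 measures. The p-values reflect the spread among these libraries alone, and that spread may be technical. Scripts ran in Python 3.11.15 with numpy 2.4.6, pandas 2.3.3, scipy 1.17.1 and matplotlib 3.10.9, and the test was tested on simulated data.

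The members, gene lists and rules were chosen with earlier results of these data known. Named members were those open in all libraries or in none, those differing by 3 or more libraries between groups, Evx1, Evx2 and every called region; the other open members were added after their values were seen. Alternatives were peaks with a score of 100 or more, lists of equal length, no flank, 25% cover, other windows and classes, shares of open regions, each library left out, and a replicate block; windows at the 5-prime gene boundary were added after the data were seen.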

Additional observations from a re-analysis of the deposited data

How the results depend on the processing

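Over 287 alternatives with a test, 0 gave a p under 0.05 by exact permutation, but only 48 had enough relabellings to allow such a p, so the count says nothing about stability. With peaks of score 100 or more, EPC minus CPC was -2.25 regions in all and -0.75 in HoxB, and induced minus uninduced was -0.25 in all, 0.25 in HoxB and -0.25 in HoxC. In that setting regions gained in CPC, lost in CPC, gained in EPC, CPC-only and EPC-only all numbered 0. With lists of equal length, EPC minus CPC was -0.5 and induced minus uninduced -1.5 (HoxC -0.75, EPC alone -5.5), with 1 region gained and 1 lost in CPC, 2 lost in EPC, and 0 CPC-only and 0 EPC-only. Without flanks, induced minus uninduced in EPC was 0.5, with 1 region lost in CPC, 0 EPC-only and 1 open in all libraries. As a share of open regions, induced minus uninduced was -0.00276 percentage points (HoxC -0.000509), and with windows of 2.5 kb the early members gave -0.25 for EPC minus CPC. The cause of these shifts was not tested.

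With each library left out in turn, EPC minus CPC ranged from -1.75 to 1.92 and, in HoxC, from -0.667 to 0.417 (HoxB 0.917 to 2.25). Induced minus uninduced ranged from -1.75 to 3.75 in all, -3 to 8 in CPC, -1.5 to 0.5 in HoxB, -0.5 to 1 in HoxC and -0.75 to 0.25 for late members. Regions gained in CPC ranged from 2 to 7, lost in CPC 2 to 7, gained in EPC 1 to 4, lost in EPC 0 to 5 and EPC-only 1 to 2.

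Samples that share a replicate number did not deviate together: the correlations of replicate differences were -0.00866 to 0.0102 for ATAC and 0.059, 0.0467, -0.0203 and -0.0975 for ChIP numbers 1 to 4. They share only a number. With the replicate block, EPC minus CPC was 0.5 (exact permutation p = 1), induced minus uninduced 1 over both cell types, 2.5 in CPC and -0.5 in EPC (exact permutation p = 1 each), and ChIP 1 (exact permutation p = 0.5). The smallest p that the block allows is 0.125 for 4 pairs, so it could make no call.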
